A study of Mus musculus with 16 samples.

Results

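Transforming growth factor beta (TGF-beta) signalling was described here through 10 genes: the ligand gene Tgfb1, the receptor genes Tgfbr1 and Tgfbr2, the signal transducer genes Smad2, Smad3 and Smad4, the inhibitor genes Smad7 and Skil, and the genes of the surface co-factors Lrrc32 and Nrp1. They were chosen by name, and all 10 were found once among the 47643 genes of each table and passed the filter on low values in both. The series compared splenic T cells of TRaGS mice with those of wild-type littermates, TRaWT. The GS mutation lies in the DNA-binding domain of thyroid hormone receptor alpha and abolishes its binding to DNA; the sources used here do not give age, sex or strain background, and neither genotype is labelled with a transgene or a Cre driver. From each of the 8 mice (4 of each genotype) came 1 library of CD25- CD4+ T cells (labelled naive in the design text, called CD4 below) and 1 of CD25+ CD4+ regulatory T cells (Treg), both sorted from the magnetically enriched CD4+ cells of 1 spleen.

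TGF-beta is secreted in a latent form that is held on the surface of Treg by GARP, the product of Lrrc32, and is released by integrins. The active ligand brings together a type II receptor (Tgfbr2) and a type I receptor (Tgfbr1), which phosphorylates SMAD2 and SMAD3; these join SMAD4, enter the nucleus and switch genes on or off, while SMAD7 blocks the receptor and SKIL (SnoN) blocks the SMAD complex. In T cells the pathway restrains effector differentiation and helps to induce Foxp3, and neuropilin-1 (Nrp1), a receptor for semaphorins that also binds TGF-beta, marks most Treg that arise in the mouse thymus.

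The libraries were 3' tag libraries, so the reads lie at the ends of polyadenylated transcripts and the values are normalised read counts. Whole reads were recovered from them, from 2679119 to 5095278 in a CD4 library and from 2912038 to 4154027 in a Treg library. The ribosomal-repeat gene Gm42418 took between 20.8% and 41.1% of them. CD4 libraries were the noisier: among genes with a mean of 50 to 500 normalised counts the median coefficient of variation over the 4 TRaWT mice was 38.0% in CD4 and 26.9% in Treg. TRaGS replicate 2 stood apart in CD4: the chi-square per degree of freedom of its counts against the other 3 TRaGS libraries was 74.3 to 88.9, beside 15.4 to 30.7 among those 3, and it had the lowest median Spearman correlation with the other CD4 libraries (0.762, against 0.796 to 0.835) and the most reads. The sort was checked against markers. Cd4 and Cd3e were present in both subsets, and Foxp3, Il2ra, Ikzf2 and Ctla4, which define Treg, were higher in Treg in 8 of 8 mice. In CD4 they were not at 0: in RPM (reads scaled to the same total in every library), Foxp3 had a median of 9.65% of its Treg level and Ikzf2 of 13%. Ccr7, a gene of naive T cells, was present in Treg too. In such bulk samples, fewer cells of a type and less RNA per cell cannot be told apart.

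In Treg, 2 of the 10 genes differed between the genotypes. Nrp1 rose in TRaGS to a mean 1.75 times that of TRaWT, and Smad7 fell to 0.493 times that of TRaWT. With limma, which was fitted to all genes of a table, 1 member was thus called higher and 1 lower at an adjusted p under 0.05, against a background of 0.733% of all 11051 tested genes called higher and 0.226% called lower (0.959% in all). An unadjusted p under 0.05 was reached by 4 members, Nrp1, Smad7, Lrrc32 and Tgfb1; over all genes 9.12% reached it. The receptors and the transducing Smads did not pass, and the median log2 fold change of the 10 genes was -0.01, beside 0.01 over all tested genes. In CD4 0 of the 10 genes were called with limma, beside 0.0575% of all 10426 tested genes; edgeR and DESeq2 called 0 too, and 1 gene, Smad3, had an unadjusted p under 0.05. All values below are normalised counts in replicates 1 to 4 of a group, fold changes are log2, TRaGS minus TRaWT, with their SE, and n = 4 mice per group.

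**Figure D1:**
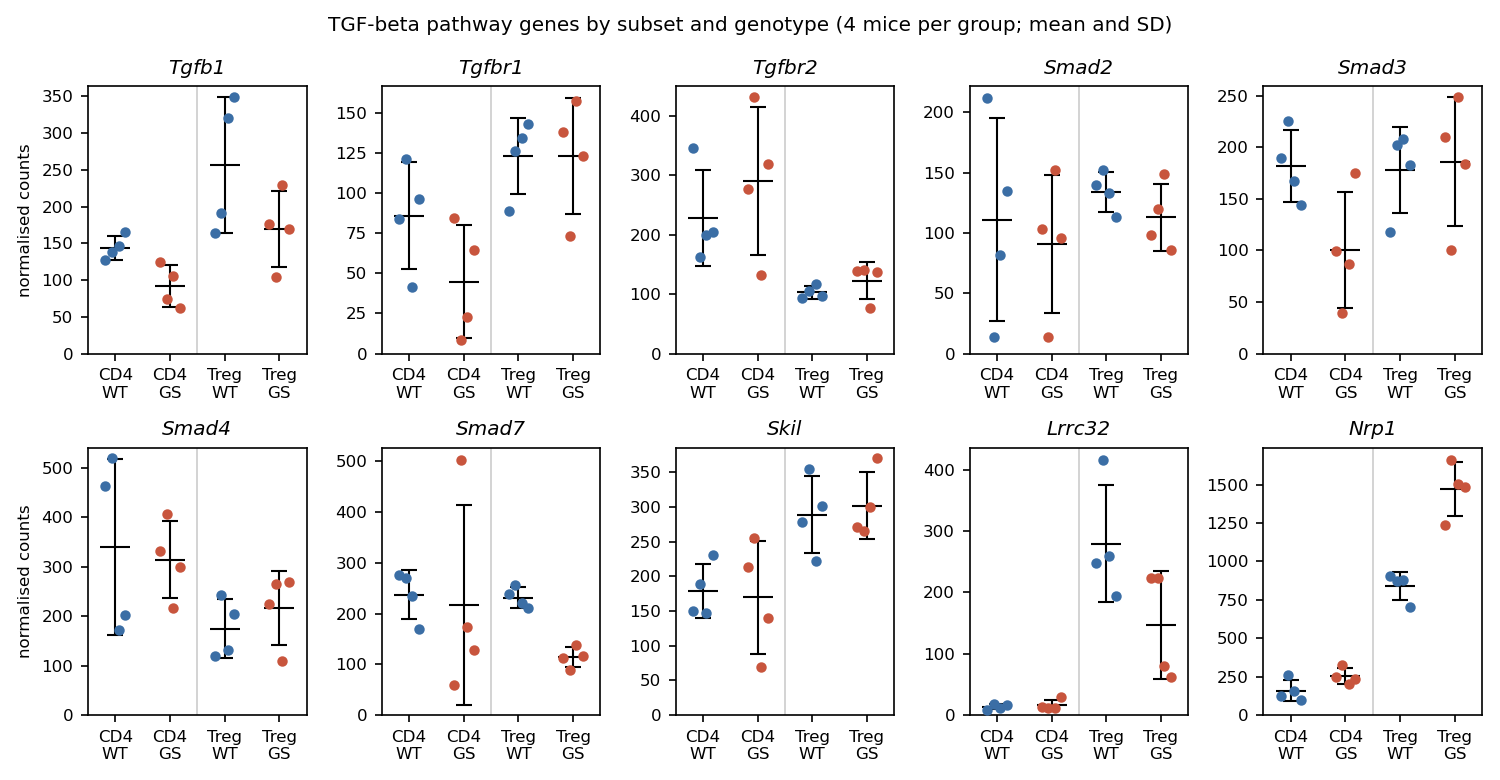
Normalised counts of the 10 genes (vertical axes, 1 panel a gene) in CD4 and Treg of TRaWT (WT, blue) and TRaGS (GS, red) mice; each point is 1 mouse, and bars give the mean and SD. In Treg the 4 TRaGS points of Nrp1, 1238 to 1663, lie above all TRaWT points, 704 to 904, and those of Smad7, 89.6 to 137, lie below all TRaWT points, 210.1 to 257.

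The ligand gene Tgfb1 (ENSMUSG00000002603, chromosome 7, 25687002 to 25705077, plus strand, GRCm38) encodes TGF-beta 1. In Treg it measured 164, 191, 321 and 349.8 in TRaWT and 177, 104, 229.8 and 169 in TRaGS. The 2 high TRaWT mice were replicates 3 and 4, and the groups overlapped. Means were 256 ± 92.6 and 169.8 ± 51.5 (SD), and the fold change of -0.57 ± 0.26 did not pass (unadjusted p = 0.0330, adjusted p = 0.481, limma). Replicates 1 and 2 of both genotypes come from libraries numbered 1 to 18 in the titles and replicates 3 and 4 from those numbered 19 to 36; the sources used here do not say what the numbers stand for. The Treg mean of Tgfb1 was 159 in the first set and 267 in the second, and within each set the fold change was negative, -0.38 and -0.76.

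In CD4, Tgfb1 measured 127, 138, 147 and 166 in TRaWT and 125, 74.2, 105 and 61.9 in TRaGS. Every TRaGS value lay below every TRaWT value and the nearest pair was 125 and 127. It was the single member without overlap in CD4, where 1.73% of all tested genes were lower without overlap, 1.43% were higher without overlap and 3.16% had no overlap in either direction. The fold change was -0.70 ± 0.54 with adjusted p = 0.947, so the lower level was not a call; without TRaGS replicate 2 it was -0.62.

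Lrrc32 (ENSMUSG00000090958, chromosome 7, 98489283 to 98502181, plus strand) encodes GARP, the anchor of latent TGF-beta on activated Treg and on platelets. In Treg it measured 248, 416, 260.1 and 194 in TRaWT, and 223, 224, 80.3 and 62.0 in TRaGS. TRaGS replicates 3 and 4 were low, while TRaGS replicates 1 and 2 lay inside the TRaWT range. The animal numbers of TRaGS replicates 3 and 4 in the titles are the highest of all mice, and no TRaWT mouse has a number near them. What the animal numbers stand for is not given in the sources used here, and their part in the Lrrc32 values was not tested. The means, 279.6 ± 95.7 and 147 ± 88.4, gave a fold change of -1.09 ± 0.30 that missed the threshold (adjusted p = 0.0747, limma). The fold change was -0.52 among the replicates 1 and 2 of both genotypes and -1.66 among replicates 3 and 4, and it was -0.26 (adjusted p = 0.905) when TRaGS replicates 1 and 2 alone were set against all TRaWT. With the library number set as a term, an alternative added after seeing the data, the adjusted p was 0.0152; over all alternatives it ran from 0.0152 to 0.905, and 6 of 21 made the call. The platelet genes Gp9 and Gp1bb were at 0 in all Treg libraries, and the 5 platelet markers summed to 0 to 17.1 in TRaWT and 0.723 to 29.9 in TRaGS. Itga2b, another of the 5, had a Treg mean of 10.5 and a fold change of 2.03 ± 1.16 (adjusted p = 0.635, limma). Of the 5, 2 had a higher mean in TRaGS, and their part in the Lrrc32 values was not tested. In CD4, Lrrc32 was near its detection floor, from 8.07 to 17.5 in TRaWT and from 11.3 to 28.6 in TRaGS (10 to 25 reads per library), with overlapping groups (0.16 ± 1.25, adjusted p = 0.991; 0.28 without TRaGS replicate 2).

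Both receptor genes overlapped between genotypes in both subsets. Tgfbr2 (ENSMUSG00000032440, chromosome 9, 116084293 to 116175360, minus strand), the ligand-binding type II receptor, measured 92.9, 105, 117 and 97.4 in TRaWT Treg, and 139, 141, 77.0 and 137 in TRaGS Treg. In TRaGS 3 mice stood above every TRaWT mouse and replicate 3 below them all, and the fold change was 0.22 ± 0.30 (adjusted p = 0.897, limma). In CD4 it ranged from 162 to 346 in TRaWT and from 132 to 433 in TRaGS (0.28 ± 0.39, adjusted p = 0.955). Tgfbr1 (ENSMUSG00000007613, chromosome 4, 47353222 to 47414931, plus strand), the signalling kinase of the pair, had a mean of 123 in Treg of either genotype, with SDs of 23.9 and 36.0, and a fold change of -0.03 ± 0.29 whose sign changed in 5 of 21 alternatives. In CD4 it measured 84.0, 121, 41.4 and 96.3 in TRaWT and 84.1, 8.48, 22.6 and 64.2 in TRaGS. TRaGS replicates 2 and 3 were low, and the fold change of -1.28 ± 0.79 did not pass (adjusted p = 0.947); without TRaGS replicate 2 it was -0.67. The CD4 fold change of Tgfbr2 was then 0.05.

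Of the Smads that carry the signal, none was called in either subset. Smad3 (ENSMUSG00000032402, chromosome 9, 63646767 to 63757994, minus strand) encodes a protein that binds DNA in the SMAD complex. In CD4, TRaWT mice had 189.7, 226, 167 and 144 and TRaGS mice had 99.7, 39.6, 87.1 and 175. TRaGS replicates 1 to 3 lay below every TRaWT mouse, and replicate 4 lay inside their range. Its fold change of -1.01 ± 0.51 gave the only unadjusted p under 0.05 among the members in CD4 (0.0480; 5.17% of all tested genes had one), with adjusted p = 0.947. Without TRaGS replicate 2, the lowest of these mice, the fold change was -0.63 with an unadjusted p of 0.146. In Treg, Smad3 ranged from 118 to 208 in TRaWT and from 100.5 to 249 in TRaGS (0.02 ± 0.27, with a sign that changed in 4 of 21 alternatives).

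Smad2 (ENSMUSG00000024563, chromosome 18, 76241580 to 76310963, plus strand), the partner of SMAD3 downstream of the receptor, was even in Treg, with 134 ± 16.4 in TRaWT and 113 ± 27.9 in TRaGS (-0.27 ± 0.28, adjusted p = 0.863). In CD4 it measured 212, 13.4, 81.7 and 135 in TRaWT and 103, 13.4, 152 and 96.2 in TRaGS. Replicate 2 of each genotype was low, and the coefficient of variation in TRaWT was 76.0% in CD4 against 12.2% in Treg. The CD4 fold change of -0.16 ± 0.67 changed sign in 5 of 21 alternatives and was 0.59 without TRaGS replicate 2. Smad4 (ENSMUSG00000024515, chromosome 18, 73639009 to 73703780, minus strand), the shared partner of the receptor-activated Smads, measured 120, 242, 131 and 205 in TRaWT Treg, and 225, 265, 109 and 269.7 in TRaGS Treg. TRaGS replicate 3 was the lowest of the 8 mice, the groups overlapped, and the fold change was 0.29 ± 0.27 (adjusted p = 0.838). In CD4 its fold change was 0.01 ± 0.36, with a sign that turned in 8 of 21 alternatives (-0.12 without TRaGS replicate 2).

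Smad7 (ENSMUSG00000025880, chromosome 18, 75367529 to 75395935, plus strand) is an inhibitory Smad that TGF-beta itself induces and that takes the receptor out of action. In Treg it measured 238, 257, 220.4 and 210.1 in TRaWT and 112, 89.6, 137 and 117 in TRaGS. The groups were far apart, with each TRaGS mouse below the lowest TRaWT mouse, and the spread within each was small, with coefficients of variation of 8.84% and 17.1%. The mean fell from 231 ± 20.4 to 114 ± 19.5, a fold change of -1.03 ± 0.25 (adjusted p = 0.0229, limma). On recovered reads edgeR gave adjusted p = 0.0301 and DESeq2 0.00195. The call was lost in 7 of 21 alternatives: adjusted p was 0.0602 to 0.0961 without any 1 of TRaGS replicates 1, 2 and 4 or TRaWT replicates 1 and 2, 0.0632 with TRaGS replicates 1 and 2 alone, and 0.222 without the variance trend, within a full range of 0.00195 to 0.222. The fold change was -1.29 among replicates 1 and 2 and -0.76 among replicates 3 and 4.

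In CD4, Smad7 measured 275, 269.8, 234 and 169.5 in TRaWT and 59.6, 503, 173 and 129 in TRaGS. TRaGS replicate 2 was the highest of all CD4 libraries and the other 3 TRaGS mice were low or inside the TRaWT range, so the TRaGS coefficient of variation was 90.9%. The fold change was -0.53 ± 0.42 (adjusted p = 0.947), -1.07 without TRaGS replicate 2 (adjusted p = 0.810) and -0.05 without TRaGS replicate 1. Skil (ENSMUSG00000027660, chromosome 3, 31095058 to 31122577, plus strand), the nuclear inhibitor of the SMAD complex, was level in Treg, at 222 to 355 in TRaWT and 266 to 371 in TRaGS (0.07 ± 0.20, adjusted p = 0.962). In CD4 it ranged from 147 to 230.5 in TRaWT and from 69.7 to 256 in TRaGS (-0.21 ± 0.46; -0.46 without TRaGS replicate 2). The signs of the Skil fold changes turned in 3 of 21 alternatives in Treg and in 2 of 21 in CD4.

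Nrp1 (ENSMUSG00000025810, chromosome 8, 128358604 to 128503363, plus strand) encodes neuropilin-1. In Treg it measured 904, 872, 879 and 704 in TRaWT and 1238, 1663, 1501 and 1483 in TRaGS. All TRaGS mice lay above all TRaWT mice, with no value between 904 and 1238. The mean rose from 840 ± 91.5 to 1472 ± 175, a fold change of 0.81 ± 0.14 (adjusted p = 0.000999, limma; 0.00309 with edgeR and 2.16e-06 with DESeq2). The call was kept in 20 of 21 alternatives and lost without the variance trend (0.316), and the fold change was 0.69 among replicates 1 and 2 and 0.92 among replicates 3 and 4. Nrp1 and Smad7 were the members without overlap in Treg, where 2.84% of all tested genes were higher and 2.23% lower without overlap (5.07% in all).

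Nrp1 is also carried by some dendritic cells and macrophages. The 8 markers of those cells summed to 118 to 162 in TRaWT Treg and to 109 to 171 in TRaGS Treg, with Adgre1 at 0, and 4 of the 8 had a higher mean in TRaGS. B cell markers moved with the genotype: the 9 summed to 1038 to 1489 in TRaWT Treg and 1949 to 2368 in TRaGS Treg, 8 of 9 had a higher mean in TRaGS, and none was at 0, with Cd79a at a mean of 0.536 and Ighm at 1228. All 38 markers of other cell types together took 0.0407% to 0.0576% of the reads in TRaWT Treg and 0.0662% to 0.0900% in TRaGS Treg (exact permutation test, two-sided, p = 0.0286, below which groups of this size cannot go; 0.0571 without TRaGS replicate 2). Their part in the Nrp1 and Smad7 differences was not tested. The 6 Treg markers summed to 7317 to 8384 in TRaWT Treg and to 8576 to 10389.9 in TRaGS Treg, and 4 of the 6 had the higher mean in TRaGS. Most of this difference lay in Ikzf2, which encodes Helios and was itself called (3751 ± 432 to 5466 ± 668, 0.54 ± 0.12, adjusted p = 0.0140, limma; lost in 7 of 21 alternatives). Il2ra, which encodes the sorted marker CD25, had the lower mean in TRaGS, at 1499.6 ± 151 in TRaWT Treg and 1141 ± 165 in TRaGS Treg (-0.40 ± 0.14, unadjusted p = 0.00680, adjusted p = 0.271). Foxp3 itself was level, at 1165 ± 65.4 and 1156 ± 199. The 5 markers of naive T cells summed to 5240.3 to 5466 in TRaWT Treg and to 4503 to 5128 in TRaGS Treg. Of these 5, 1 had the higher mean in TRaGS. Among them, Ccr7 had 357 ± 34.5 in TRaWT Treg and 243 ± 28.8 in TRaGS Treg (-0.56 ± 0.20, adjusted p = 0.281, limma). The part of the Treg and naive markers in the Nrp1 and Smad7 differences was not tested.

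In CD4, Nrp1 measured 123, 258, 156 and 98.8 in TRaWT and 247, 324, 204 and 233 in TRaGS. TRaWT replicate 2 lay among the TRaGS mice and the other 3 below them all, and the fold change of 0.74 ± 0.43 did not pass (unadjusted p = 0.0842, adjusted p = 0.947, limma); without TRaGS replicate 2 it was 0.61. The Treg markers in these CD4 libraries summed to 753 to 1169.5 in TRaWT and 1019 to 1569.6 in TRaGS, and their part in the Nrp1 values was not tested.

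The promoter window of Nrp1, the member that rose, is shown beside that of Tgfb1, a member with no call, to let their letters be compared. Both run from 250 bases before to 50 bases after a RefSeq start on GRCm38.p6. The Nrp1 window lies wholly inside the gene coordinates given above, which begin at 128358604, so its RefSeq start is downstream of that beginning. The Tgfb1 window includes 25687002, where the coordinates of Tgfb1 begin. A script searched both strands for AGGTCA, the core motif that thyroid hormone receptors bind, and for CAGAC, a motif that SMAD3 and SMAD4 bind. Matches of both can overlap where they share the letters CA, which is not so in these windows. Capitals mark the matches.
Nrp1, chr8:128358823-128359122, plus strand: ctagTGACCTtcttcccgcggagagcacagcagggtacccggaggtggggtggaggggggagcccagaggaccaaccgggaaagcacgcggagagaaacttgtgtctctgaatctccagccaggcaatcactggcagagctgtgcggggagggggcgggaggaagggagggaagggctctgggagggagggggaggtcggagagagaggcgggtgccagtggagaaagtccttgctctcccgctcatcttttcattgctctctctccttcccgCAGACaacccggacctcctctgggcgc
Tgfb1, chr7:25686752-25687051, plus strand: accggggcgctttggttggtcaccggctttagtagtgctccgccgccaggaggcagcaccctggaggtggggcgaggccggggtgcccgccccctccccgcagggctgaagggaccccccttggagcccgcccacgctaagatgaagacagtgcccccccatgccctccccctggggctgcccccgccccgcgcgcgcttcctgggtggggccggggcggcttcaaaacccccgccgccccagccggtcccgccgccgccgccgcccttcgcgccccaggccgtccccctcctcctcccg
The Nrp1 window holds AGGTCA on the opposite strand, with the match beginning 246 bases before its RefSeq start. It also holds CAGAC, which begins at base 24 with that start counted as base 1. The Tgfb1 window holds neither. AGGTCA occurs in 16.3% of 32851 mouse promoter windows of this length, CAGAC in 49.6% and both in 8.19%. RefSeq windows were matched for 5 of the 10 members, Tgfb1, Tgfbr1, Tgfbr2, Smad3 and Nrp1; CAGAC was found once each in a window of Tgfbr1 and in that of Tgfbr2, and AGGTCA in none but Nrp1. A match describes letters and is no measure of binding.

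**Figure D2:**
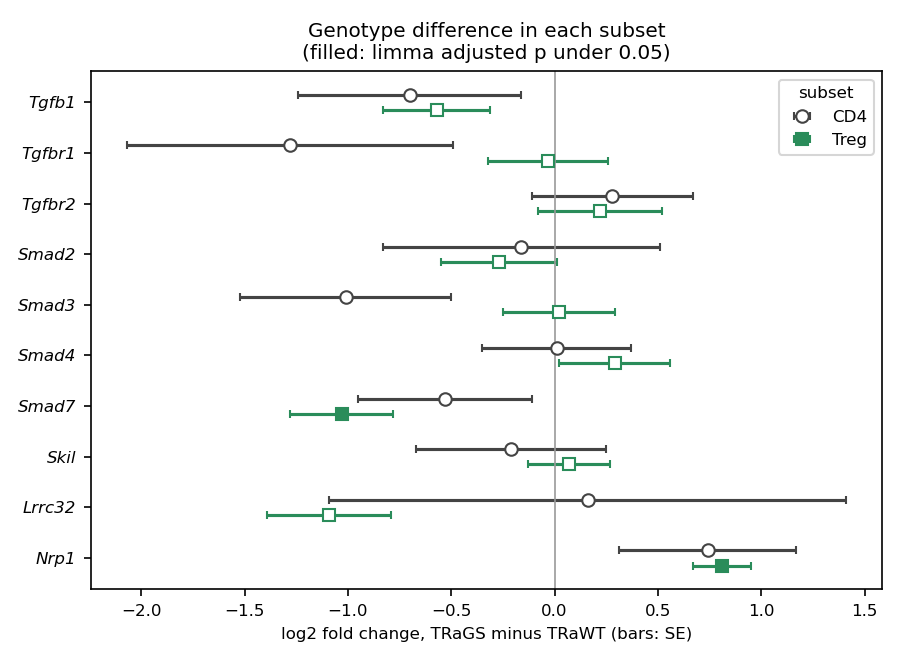
Log2 fold change of each gene, TRaGS minus TRaWT (horizontal axis, bars give the SE), in CD4 and in Treg; filled marks have a limma adjusted p under 0.05. Nrp1 (0.81) and Smad7 (-1.03) in Treg are filled, and the CD4 bars are the wider, up to 1.25 for Lrrc32.

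Whether the genotype difference itself differed between Treg and CD4 was tested on each mouse's Treg minus CD4 log2 difference. None of the 10 genes passed (0 calls, 0 with an unadjusted p under 0.05), and none of 9914 genes did (0%), while 591 (5.96%) had an unadjusted p under 0.05. For Nrp1 the genotype difference in Treg exceeded that in CD4 by 0.07 ± 0.60 (adjusted p = 0.992), and for Smad7 it was lower by a value of -0.50 ± 0.66 (adjusted p = 0.939). Thus neither gene was shown to respond differently in Treg and in CD4, and the SEs do not show that they respond alike. The largest such differences were -1.25 ± 0.81 for Lrrc32, 1.24 ± 0.76 for Tgfbr1 and 1.04 ± 0.50 for Smad3, with adjusted p between 0.840 and 0.859.

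The subsets themselves were compared within each mouse in RPM without Gm42418; the tables were normalised separately, so this is a description with no test. Higher in Treg in all 8 mice were 4 of the 10 genes, Lrrc32, Nrp1, Tgfb1 and Skil, and 2, Tgfbr2 and Smad4, were lower in all 8. Over 11562 genes 5.09% were higher and 2.98% lower in every mouse.

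The surface co-factors stood far above the rest. Lrrc32 was a median 18.2-fold higher in Treg (log2 4.19, range 0.90 to 4.78), with a median of 96.0 RPM in Treg and 5.70 in CD4. Its lowest ratio, 0.90, was that of TRaGS replicate 4, and the next lowest, 2.73, that of TRaGS replicate 3, the mice with low Lrrc32 in Treg. Nrp1 was a median 5.80-fold higher (log2 2.54, range 1.68 to 2.78), at 463 against 103 RPM, and its median log2 ratio was 2.47 in TRaWT and 2.54 in TRaGS. The Treg markers Foxp3 and Ikzf2 had median ratios of 10.4-fold and 7.67-fold by the same measure.

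Within the signalling core the ratios were smaller. Tgfb1 was a median 1.75-fold higher in Treg (log2 range 0.21 to 1.23) and Skil 1.48-fold higher (0.19 to 2.01). Tgfbr2 in Treg was 0.454 times its CD4 level (log2 -1.14, range -2.06 to -0.71) and Smad4 0.665 times (log2 -0.59, range -2.11 to -0.18). Tgfbr1 was higher in 6 of 8 mice, Smad3 in 5, Smad2 in 3 and Smad7 in 2, with ranges that spanned 0. Median log2 ratios of Tgfbr1 and Smad3 were 0.17 and -0.06 in TRaWT and 1.71 and 1.24 in TRaGS. The CD4 fold changes of both genes, -1.28 and -1.01, were negative and did not pass.

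**Figure D3:**
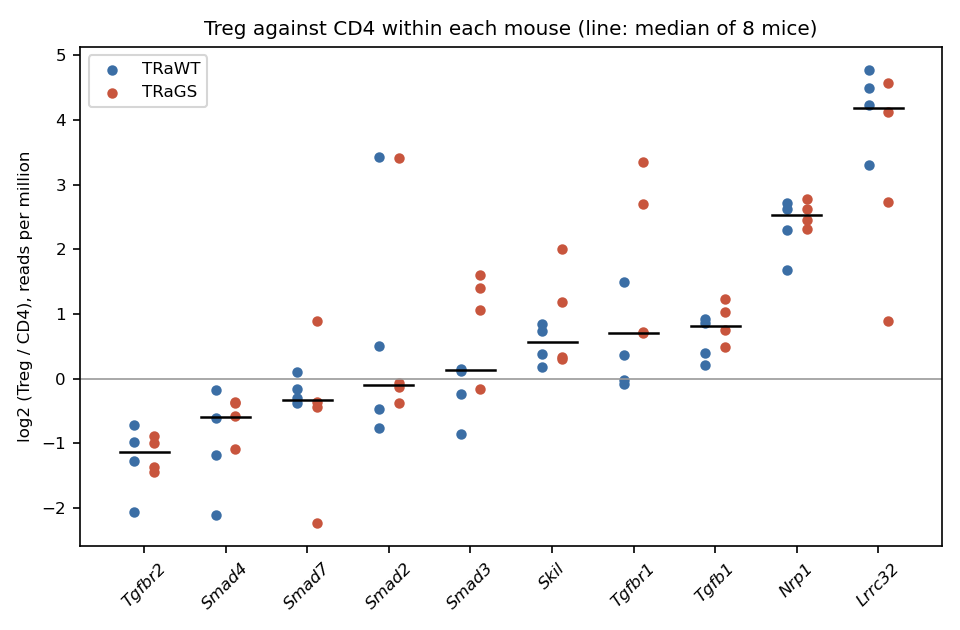
Log2 ratio of Treg to CD4 in RPM (vertical axis) for each of the 10 genes, with 1 point a mouse, TRaWT in blue and TRaGS in red, and a line at the median of 8 mice. Lrrc32 (median 4.19) and Nrp1 (2.54) lie above 0 in every mouse, and Tgfbr2 (-1.14) and Smad4 (-0.59) lie below 0 in every mouse.

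The wider pathway was read in lists of genes by role. Of 11 genes of ligands and their activation, 5 were tested and 0 called in Treg; Tgfb2, Tgfb3, Ltbp1, Ltbp3 and Ltbp4 did not reach the filter in either subset. The other TGF-beta ligand genes were at 0 in most libraries, Tgfb2 with at most 10 reads in any library and Tgfb3 with at most 8. Furin, the protease that cleaves pro-TGF-beta, had 176 ± 40.3 in TRaWT Treg and 200.1 ± 24.5 in TRaGS Treg (0.21 ± 0.24), and Hsp90b1, a chaperone that GARP needs to fold, had 1098 ± 178 and 1331 ± 209 (0.28 ± 0.15, adjusted p = 0.600).

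Receptors of related ligands, other Smads, negative regulators and the branch outside the Smads gave no call in Treg either, in 6, 8, 9 and 6 tested genes, and their median fold changes were 0.22, -0.04, 0.02 and 0.14. Across these and the ligand list edgeR and DESeq2 called 0 as well, and 1 gene, the activin receptor gene Acvr1b, had an unadjusted p under 0.05 in Treg. Of the genes in these lists, 3 had no overlap between genotypes in Treg, beside 5.07% of all tested genes. These 3 are named after their values were seen. Itgb8, the integrin chain that frees TGF-beta from GARP, was the one higher in TRaGS (95.1 ± 8.14 and 134 ± 24.6, 0.48 ± 0.29, adjusted p = 0.662). The lower ones were Acvr1b (27.4 ± 11.2 and 6.55 ± 3.28, -1.93 ± 0.80, unadjusted p = 0.0208, adjusted p = 0.419) and Trim33, a ubiquitin ligase that binds Smads (261 ± 45.2 and 215 ± 13.1, -0.26 ± 0.21, adjusted p = 0.794). The bone morphogenetic protein receptor genes Bmpr2 and Bmpr1a had fold changes of 0.38 ± 0.38 and 0.28 ± 0.78 in Treg, and the co-activator genes Crebbp and Ep300 had 0.17 ± 0.14 and -0.06 ± 0.16. Pmepa1, a TGF-beta target that feeds back on the receptor Smads, averaged 250.5 ± 69.1 in TRaWT mice and 330.1 ± 53.5 in TRaGS mice (0.43 ± 0.22, adjusted p = 0.557), and Fkbp1a, which binds the type I receptor, had 0.02 ± 0.19. Rhoa and Tab2, of the branch outside the Smads, had 0.13 ± 0.18 and 0.14 ± 0.16. The signs of Bmpr2, Bmpr1a, Ep300, Fkbp1a and Rhoa turned in 1 to 5 of 21 alternatives. In CD4 all of these lists had 0 calls with limma, edgeR and DESeq2, and 2 genes had an unadjusted p under 0.05, both among the other Smads and their co-factors.

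Genes that TGF-beta is known to raise in T cells gave 1 call among 11 tested in Treg, higher in TRaGS, beside 0.959% of all genes. Of the 11, 6 had a positive and 5 a negative fold change, with a list median of 0.43. An unadjusted p under 0.05 was reached by 1, beside 9.12% of all genes, and edgeR and DESeq2 called 1 each. The called gene was Itgae, which encodes CD103, the integrin chain that binds E-cadherin. TRaWT mice had 115, 72.4, 44.3 and 41.1, and TRaGS mice had 170.2, 189, 182 and 126. All TRaGS mice were above all TRaWT mice, as held for 2.84% of all tested genes. The fold change was 1.38 ± 0.33 (adjusted p = 0.0194, limma), lost in 8 of 21 alternatives, with adjusted p from 0.00584 to 0.345.

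Genes that TGF-beta is known to lower in T cells gave 2 calls among 11 tested in Treg, both higher in TRaGS, and a list median of 0.56; over all genes 0.959% were called. An unadjusted p under 0.05 was reached by 6, beside 9.12% of all genes. Klf2 was the only gene of these 6 that was lower in TRaGS (-0.35 ± 0.16, adjusted p = 0.509, limma). Klrg1, Gata3, Gzmb, Id2 and Il7r were higher. Gzmb, named after its values were seen, had 3.89 ± 3.25 in TRaWT and 29.0 ± 7.42 in TRaGS without overlap. Its fold change was 2.97 ± 0.89 (adjusted p = 0.124, limma), at 0 to 46 reads a library. Of the 11 tested, 7 had a positive and 4 a negative fold change. On recovered reads edgeR called 2 of the list and DESeq2 3. Klrg1, an inhibitory receptor of effector T cells, measured 346, 228, 239 and 176 in TRaWT and 669, 829.9, 697 and 543 in TRaGS (1.49 ± 0.20, adjusted p = 4.17e-06, limma). Its groups did not overlap, and the call was lost in 1 of 21 alternatives. Gata3, the transcription factor of type 2 helper cells, measured 947, 673, 973 and 971 in TRaWT and 1256, 1273, 1747 and 1396 in TRaGS (0.67 ± 0.15, adjusted p = 0.0115). These groups did not overlap either, and the call was lost in 5 of 21 alternatives (adjusted p 0.00243 to 0.475), among them without TRaGS replicate 3 (0.107) and without TRaWT replicate 2 (0.0991). Genes called higher thus stood in the raised list (Itgae) and in the lowered list (Klrg1 and Gata3). In CD4 neither list had a call with limma, edgeR or DESeq2, with 0 and 4 genes at an unadjusted p under 0.05.

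The semaphorins, plexins and growth factors that work with neuropilins, with their effectors, had 0 calls among 10 tested genes in Treg with limma, edgeR and DESeq2, 1 gene with an unadjusted p under 0.05, and a median of 0.33. Sema4d had 252 ± 53.8 in TRaWT Treg and 319.9 ± 55.4 in TRaGS Treg (0.35 ± 0.21).

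**Figure D4:**
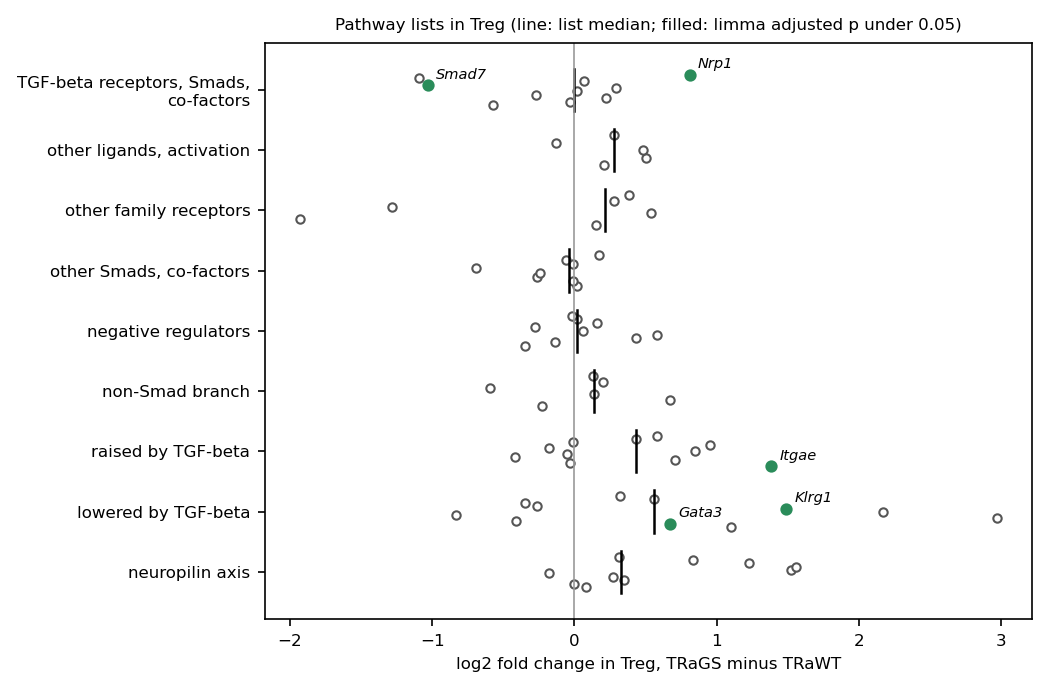
Log2 fold change in Treg, TRaGS minus TRaWT (horizontal axis), of each tested gene of the pathway lists (1 line a list, 1 point a gene); the vertical mark is the list median and filled points have a limma adjusted p under 0.05. Filled points are Nrp1 (0.81) and Smad7 (-1.03) among the 10 genes, Itgae (1.38) among genes raised by TGF-beta, and Gata3 (0.67) and Klrg1 (1.49) among genes lowered by it.

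The genes whose level followed Nrp1 most closely over the 8 Treg libraries were sought among the 5798 genes averaging 50 or more normalised counts, by Pearson's r on the log2 scale. They were Itga4 (0.984), an integrin chain of T cell homing, Rnf125 (0.973), a ubiquitin ligase, Chst2 (0.972), a sulfotransferase, Tnfrsf18 (0.969), which encodes GITR, and Acsbg1 (0.964), an acyl-CoA synthetase. For Smad7 they were Rnpc3 (0.954), Il6st (0.943), Ndufs7 (0.937), Rassf2 (0.934) and Ifit1bl1 (0.931). All 10 separated the genotypes without overlap, those of Nrp1 higher and those of Smad7 lower in TRaGS. The 8 points of each correlation thus fall into the 2 genotypes, and r describes that split. Both members split by genotype themselves, so picking by r favoured genes that separate and are called. Over all tested genes 5.07% had no overlap and 0.959% were called. Called with limma were Itga4 (1583 ± 136 to 2419 ± 208, 0.61 ± 0.13), Rnf125 (0.88 ± 0.19), Chst2 (1.63 ± 0.36), Acsbg1 (1.24 ± 0.30) and Il6st, the gp130 chain of interleukin-6 family receptors, which fell from 636 ± 69.7 to 379.7 ± 64.0 (-0.75 ± 0.17, adjusted p = 0.0166). Of 21 alternatives these calls were lost in 2 for Itga4, 5 for Rnf125, 4 for Chst2, 6 for Acsbg1 and 5 for Il6st. All 5 were lost without the variance trend, and leaving out 1 mouse lost all but Itga4: Rnf125 and Chst2 without TRaGS replicate 3 or 4, Rnf125 also without TRaWT replicate 4, Acsbg1 without TRaGS replicate 2, 3 or 4 or TRaWT replicate 4, and Il6st without TRaGS replicate 2 or TRaWT replicate 2, 3 or 4 (adjusted p from 0.0517 to 0.140).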

How the data were processed

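Each mouse gave 1 library per subset. Per the labels' protocols, RNA was purified with a column kit and turned into 3' mRNA libraries with a forward-reading kit. Per the submitters' processing notes the genome build was GRCm38; the sources used here name no aligner or counting program. For each subset the authors deposited 1 table of normalised counts, a signal unit made of read counts divided by 1 factor per library. Each table was normalised by itself. All columns were used. Values were whole multiples of 1 step in each library (100% within a tolerance of 0.001), which gave back the reads; edgeR run on them called 3 genes in CD4 and 90 in Treg. No replicate pair agreed within sampling noise. Genes with a near-identical copy that shares their 3' end are uncertain, and reads may hold copies of 1 molecule.

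Symbols came from the reference gene table (47224 of 47643 identifiers matched) and coordinates from GENCODE mouse release M21. Genes averaging 5 or more normalised counts were tested with limma 3.58.1 in R 4.3.3 on log2(value + 1), using a variance trend, and p-values were adjusted by Benjamini-Hochberg over all genes of a table at 0.05. This scale understates changes of low genes. In CD4 the prior degrees of freedom were infinite, so a gene's SE is that of the trend at its level and not its own spread between mice; in Treg they were 36.8 and for the difference between subsets 2.64. Pairing by mouse came from the animal numbers in the titles. No set test was made, and no p was adjusted over the members alone.

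The members, lists and rules were chosen with earlier results of these data known. Named genes were the members, the called genes of each list or else its 2 highest in Treg, the genes that check the sort, and the 5 genes most alike to each called member, leaving aside receptor segments, pseudogenes and predicted genes. Some genes named by these rules are not reported here. The alternatives tried were edgeR 4.0.16 and, on the same recovered reads, DESeq2 1.42.0. Others were a pseudocount of 0.5 or 5, a minimum mean of 20 or none, and upper-quartile and quantile scaling. Array weights, no variance trend, the replicate number as a block and each mouse left out were tried too. So were TRaGS replicates 1 and 2 alone, whose animal numbers lie nearer those of TRaWT than do those of the other TRaGS mice. Only the number of TRaGS replicate 1 lies among the TRaWT numbers. For the difference between subsets, 1 model of all 16 libraries was fitted (statmod 1.5.0). The library number as a term was added after seeing the data. The fits were tested on simulated counts with known changes. Figures were drawn with matplotlib 3.10.9.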

Additional observations from a re-analysis of the deposited data

Results flagged for a closer look

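Among the genes named here, 164 groups of 4 mice were searched for 1 library far from the other 3, and 9 were found; chance gives about 1 in 20 groups. Of the members, Tgfbr2 in TRaGS Treg was 77.0 in replicate 3 against 137 to 141 in the others, Lrrc32 in TRaGS CD4 was 28.6 in replicate 4 against 11.3 to 12.7, and Nrp1 in TRaWT Treg was 704 in replicate 4 against 872 to 904.

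In TRaWT Treg, Furin was 115 in replicate 3 against 191 to 200.2 in the others, Gata3 was 673 in replicate 2 against 947 to 973, Ikzf2 was 4390.5 in replicate 1 against 3439.5 to 3594, and Rnpc3 was 248 in replicate 1 against 273 to 275. In CD4, Bmpr1a was 17.5 in TRaWT replicate 2 with 0 in the others and Ifit1bl1 was 117 in TRaWT replicate 4 against 205 to 217.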

How the results depend on the processing

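Nrp1 kept its direction in Treg in 21 of 21 alternatives (0.72 to 0.89) and Smad7 did so too (-1.19 to -0.92). The count of called genes in CD4, 6, was 10 with DESeq2, 27 with TRaGS replicates 1 and 2 alone, 3 with edgeR, 1 with no filter and 0 without the variance trend, and 3 to 9 with 1 mouse left out. In Treg the count of 106 was 42 with TRaGS replicates 1 and 2 alone, 62 with no filter, 0 without the variance trend, and 56 to 108 with 1 mouse left out (56 without TRaGS replicate 3 and 61 without TRaGS replicate 4). The difference between subsets gave 4 calls in 1 model of 16 libraries and 0 to 1 with 1 mouse left out (1 without TRaWT replicate 4). The excess of markers of other cell types in TRaGS Treg, 0.0294 percentage points of the reads, was 0.0248 to 0.0330 with 1 mouse left out. In each case the cause was not tested.

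Same-numbered replicates did not deviate together (correlations of 0.009 to 0.046 in CD4 and -0.021 to 0.026 in Treg, with 2 and 1 of 4 libraries closest to their own number), so the numbers were not read as pairs. With the replicate block, 4 genes were called in CD4 and 112 in Treg, Nrp1 and Smad7 stayed called (adjusted p = 0.00164 and 0.0311) and Lrrc32 was called (0.0225).

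Signs turned for log2 fold changes that passed no test. In CD4, Smad4 was -0.12 with DESeq2 and with edgeR, -0.13 with quantile and -0.09 with upper-quartile scaling; Smad2 was 0.12 with array weights and 0.05 with quantile scaling; Skil was 0.41 and Lrrc32 -0.12 with TRaGS replicates 1 and 2 alone. In Treg, TRaGS replicates 1 and 2 alone gave -0.25 for Smad3, -0.09 for Skil, -0.60 for Bmpr1a and -0.04 for Fkbp1a, and Tgfbr1 was 0.14 with array weights and 0.01 with edgeR. For the difference between subsets, Tgfbr2 was 0.06 with array weights, 0.10 with quantile and 0.06 with upper-quartile scaling, and Smad2 was 0.01 with the latter. With 1 mouse left out, ranges that crossed 0 were, in CD4, -0.14 to 0.29 for Lrrc32, -0.46 to 0.16 for Skil, -0.96 to 0.59 for Smad2 and -0.25 to 0.27 for Smad4. In Treg they were -0.31 to 0.82 for Bmpr1a, -0.06 to 0.63 for Bmpr2, -0.14 to 0.03 for Ep300, -0.10 to 0.15 for Fkbp1a, -0.10 to 0.25 for Rhoa, -0.05 to 0.17 for Skil, -0.16 to 0.29 for Smad3 and -0.18 to 0.19 for Tgfbr1. For the difference between subsets they were -0.17 to 0.20 for Nrp1, -0.09 to 0.59 for Skil, -0.89 to 0.76 for Smad2, -0.08 to 0.57 for Smad4, -0.97 to 0.16 for Smad7, -0.05 to 0.26 for Tgfb1 and -0.33 to 0.10 for Tgfbr2. Depth limits Lrrc32 most in CD4, at 10 to 25 reads a library.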
